A study of Mus musculus with 14 samples.

Results

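The clustered protocadherins are cadherin-type adhesion proteins of the neuronal surface, encoded by genes that lie in tandem on mouse chromosome 18. Genes were taken as members when their GENCODE mouse symbol began with Pcdha, Pcdhb or Pcdhg and went on as the names of the alpha, beta and gamma clusters do. The rule found 57 genes among the 51626 gene symbols of the tables. These are 13 alpha genes, 22 beta genes and 22 gamma genes.

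Each variable first exon of these genes has a promoter of its own, and a neuron uses only some of them, a choice tied to DNA methylation and to looping by CTCF and cohesin. The proteins bind copies of themselves on other membranes, and this recognition underlies self-avoidance of dendrites and axons, tiling, and the survival of interneurons. In the alpha and gamma clusters the variable exon carries the extracellular, membrane and proximal cytoplasmic parts and is spliced to short constant exons that encode a shared cytoplasmic end. Beta genes have no constant exons. The C-type genes (Pcdhac1, Pcdhac2, Pcdhgc3, Pcdhgc4 and Pcdhgc5) lie last in their clusters, and several are used broadly rather than by chance choice.

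RNA was sequenced from mouse cortex at postnatal day 0.5. The frontal cortex set compared 4 C57BL6/J wild type libraries with 4 libraries of the Auts2 conditional knockout (cKO), C57BL6/J mice with floxed alleles of exon 15 of Auts2 and a Cre recombinase driven by Emx1. AUTS2 is a nuclear and cytoplasmic protein linked to autism, and the series asks about its part in a complex that binds RNA. Emx1-Cre acts in the lineage of cortical excitatory neurons and glia, so interneurons, vessels and microglia keep the gene. Mice that carried the floxed alleles or the Cre by themselves were not analysed here, so Cre and deletion cannot be told apart. These libraries were made from polyA RNA of rostral cortex. The RNA immunoprecipitation (RIP) set came from C57BL6/J cortex, with tissue of 2 neonates pooled per replicate and split into a pull-down with an antibody to the AUTS2 C terminus, a pull-down with IgG, and 10% input. There were 2 libraries of each, A and B, made from total RNA with a SMARTer Stranded kit. The labels call all of these biological replicates.

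Values are FPKM, fragments divided by the length of the transcript and the size of the library, estimated per transcript by the authors and summed here per gene. The tables hold no read counts and keep no depth, so counting error has no estimate. A value of exactly 0 can be a failed estimate. Auts2 itself stood at 87.7, 92.2, 55.9 and 60.3 FPKM in the wild type libraries and at 29.8, 35.2, 30.4 and 34.5 in the cKO libraries, with no overlap (log2 fold change -1.13, SE 0.14, limma adjusted p = 0.0237). Emx1 itself was at 10.5 ± 1.72 FPKM in wild type and 8.06 ± 0.543 in cKO (SD, n = 4 each; limma adjusted p = 0.628). In the pull-down, Auts2 RNA was at 275 FPKM in RIP and 237 in IgG on average (limma adjusted p = 0.133), and at 279 in RIP and 162 in input (limma adjusted p = 0.00883). Markers of excitatory neurons summed to 772 to 823 FPKM in wild type and 737 to 827 in cKO, with no other tissue to set them against. No marker of 10 cell type lists was called changed in the cKO, and without cKO 1 the striatal marker Penk was called higher (log2 fold change 1.34, limma adjusted p = 0.00839). Library cKO 1 stood apart from the other frontal cortex libraries, with interneuron markers at 435 FPKM against 287 to 350 in the others, and striatal markers at 64.0 against 71.8 to 104. Fold changes of named members in frontal cortex are therefore given with and without it. In bulk tissue, fewer cells of a type and less RNA per cell cannot be told apart.

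On GRCm38 (GENCODE vM21, plus strand) the alpha genes span chromosome 18 from 36930184 to 37187661, the beta genes from 37264938 to 37524479 and the gamma genes from 37661793 to 37841873. All alpha genes end in the same 3 constant exons of 59, 89 and 2712 nt, and all gamma genes in constant exons of 59 and 89 nt and a last exon of 1971 or 1968 nt. Reads in a constant exon fit every gene of its cluster, so the estimate for 1 member depends on reads in its own first exon. First exons also resemble each other. Of the 50-base stretches in an alternate alpha first exon, 9.63% to 23.4% (median 14.7%) occurred in another member. This share was 0% to 11.99% (median 4.27%) for beta genes, 0% to 16.9% (median 1.02%) for alternate gamma genes and 0% for all 5 C-type genes. As far as shared first-exon sequence goes, values of close neighbours within the alpha cluster are less certain than those of C-type genes. This does not cover the constant exons, which also limit C-type values. Part of the Pcdhgc4 level in frontal cortex lies in a short transcript that is mostly constant exon. The first exon of an annotated Pcdhgc5 transcript overlaps exons of the other gamma genes. The strand setting of the authors' counting could not be taken from the labels or headers, and 13 annotated genes outside the rule overlap members. None of these exceeded 4.45 FPKM in any library, the value of Gm26672, which overlaps the first exons of Pcdhga10, Pcdhgb7, Pcdhga11 and Pcdhga12 on the other strand.

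In wild type frontal cortex the gamma cluster held most of the clustered protocadherin RNA. Its members summed to 234, 239, 229 and 225 FPKM (232 ± 5.88, SD, n = 4). The alpha cluster summed to 68.4, 72.2, 76.4 and 76.9 (73.5 ± 4.01), and the beta cluster to 41.2, 44.1, 46.6 and 48.4 (45.1 ± 3.12). FPKM is scaled by length, so these levels can be set beside each other, and the 3 clusters did not overlap in any wild type library. C-type genes carried 42.6% ± 0.561 of the gamma level and 24.6% ± 1.60 of the alpha level. The gamma share counts a short Pcdhgc4 transcript, Pcdhgc4-203. Without it the wild type gamma sum was 210.7 FPKM on average, and the C-type share would be lower.

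Among alpha genes the C-type gene Pcdhac2 (chromosome 18, 37143503 to 37187657) led. It was at 17.4, 16.1, 17.1 and 16.6 FPKM in the wild type libraries, above every other alpha gene in each. Pcdha11 followed at 6.68, 8.89, 8.44 and 8.65, and Pcdha9 at 6.96, 7.30, 8.39 and 7.24. From Pcdha11 to Pcdha3 (4.71 ± 0.803) each alpha gene overlapped the next in the order, so 9 alternate genes formed a gradual slope within the spread of the libraries. Pcdhac1, the other C-type gene of the cluster, was far lower, at 0.996, 1.21, 1.58 and 1.13 FPKM. Pcdha1 (0.7001 ± 0.117) and Pcdha8 (0.192 ± 0.0716) were lowest, and their ranges overlapped neither each other nor Pcdhac1.

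Beta genes, which encode proteins without the shared cytoplasmic end, summed to the lowest level. Pcdhb20 (chromosome 18, 37504264 to 37507822) was at 5.05, 4.28, 5.35 and 6.183 FPKM, Pcdhb7 at 3.74, 3.78, 4.51 and 5.22, and Pcdhb9 at 3.85, 3.66, 3.83 and 3.84. The first 6 beta genes, down to Pcdhb19 (3.31 ± 0.259), overlapped their neighbours in the order, and a gap separated them from Pcdhb16 (2.27 ± 0.187). From there down to Pcdhb6 (0.519 ± 0.203) each overlapped the next. Pcdhb1 was listed at 0 in 2 wild type libraries and at 0.0213 and 0.0196 in the others.

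In the gamma cluster a pair of C-type genes led. Pcdhgc3 (chromosome 18, 37806364 to 37841873) was at 57.4, 58.9, 51.1 and 47.2 FPKM in wild type. Pcdhgc4, which has been tied to neuronal survival in mouse genetics, was at 38.4, 40.7, 46.0 and 46.5, with no overlap with Pcdhgc3. Pcdhga11 was at 18.6, 20.2, 20.2 and 19.9, the highest of the 19 alternate gamma genes. The rest ran from Pcdhga3 (12.1 ± 0.582) down to Pcdhgb8 (0.512 ± 0.0900), most of them overlapping the next in the order. The third C-type gene, Pcdhgc5, known for its rise after birth, was low at 2.64, 1.77, 2.41 and 2.30 FPKM. Mean levels thus ranged from 0.0102 FPKM (Pcdhb1) to 53.6 (Pcdhgc3) across the locus, and the C-type genes lay both at its top and near its bottom.

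Position in the cluster went with level to a different degree in each. Spearman's rho between a member's start and its mean wild type FPKM was 0.41 over 13 alpha genes, 0.57 over 22 beta genes and 0.02 over 22 gamma genes. The points share the same libraries, and neighbouring genes share sequence, so these are descriptions.

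**Figure D1:**
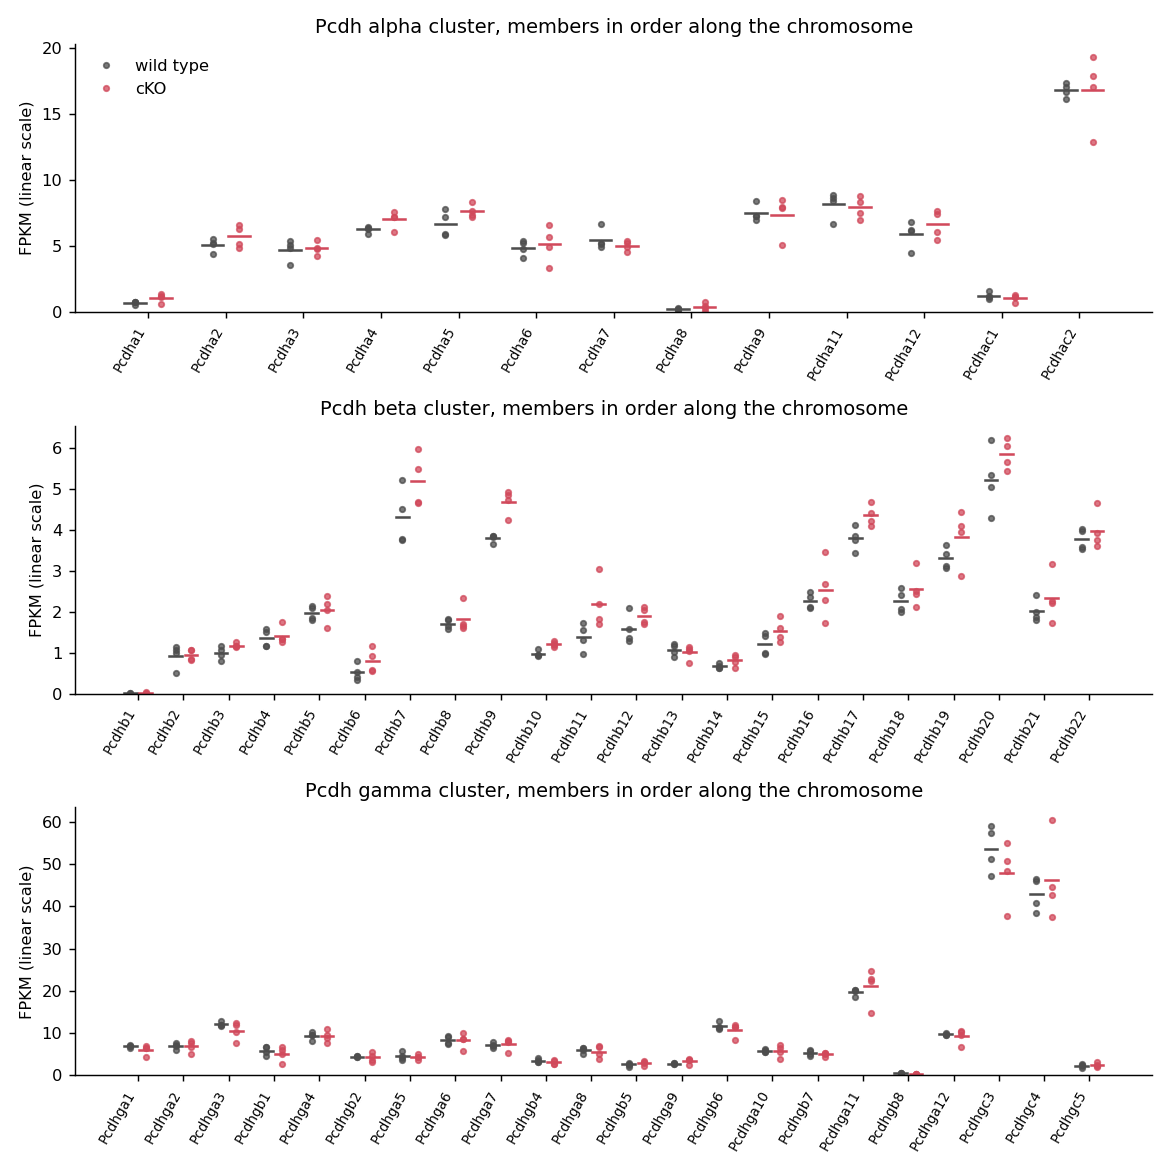
FPKM of each clustered protocadherin in frontal cortex, genes in chromosome order within the alpha, beta and gamma clusters, 1 point per library (4 wild type, 4 cKO) on a linear scale. Pcdhac2 is the highest alpha gene in every library, Pcdhgc3 and Pcdhgc4 are the 2 highest gamma genes, and the wild type and cKO points overlap for nearly all genes.

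The first comparison asked how the deletion of Auts2 changed these genes in frontal cortex. No member was called changed. Of 50 members tested, 11 alpha, 18 beta and 21 gamma, 0 passed in either direction with limma at an adjusted p of 0.05, and 2 had an unadjusted p under 0.05. Across all 12786 genes tested, 0.00782% were called higher in the cKO and 0.0156% lower, so the comparison made few calls at all, and 1011 genes had an unadjusted p under 0.05. The other 7 members, Pcdha1, Pcdha8, Pcdhb1, Pcdhb2, Pcdhb6, Pcdhb14 and Pcdhgb8, fell under the filter of a mean of 1 FPKM and were at most 1.36 FPKM in any library.

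The 3 clusters differed in where their fold changes lay, on the log2(FPKM + 1) scale. The median was 0.03 over the alpha genes (6 of 11 positive), 0.14 over the beta genes (17 of 18 positive) and -0.05 over the gamma genes (6 of 21 positive). Over all genes tested the median was 0.00, and 50.4% were positive. Pcdhb3 (0.985 FPKM in wild type and 1.17 in cKO on average) and Pcdhb10 (0.972 and 1.22) passed the filter only through their cKO values. With no filter the beta median was 0.13, with 21 of 22 positive. Without cKO 1 the medians became 0.10, 0.19 and 0.03, with 9 of 11, 17 of 18 and 15 of 21 positive. The gamma median thus changed sign with 1 library, while the alpha and beta medians were positive with and without it. The alpha median did turn negative without cKO 2 (-0.0147), cKO 4 (-0.0627) or wild type 2 (-0.0151). Leaving out each library, the beta median ranged from 0.108 to 0.187. Without cKO 1, 0 members were called, beside 0.0157% of 12771 genes higher and 0.00783% lower. Of the 50 members 6 then had all cKO libraries above all wild type libraries (12%, beside 5.45% of all genes) and 0 below (beside 3.37%). The 6 were Pcdha4, Pcdhb9, Pcdhb10, Pcdhb19, Pcdhga9 and Pcdhga11, of which Pcdhb10 passed the filter only through its cKO values. Members of a cluster lie side by side and share libraries, so these counts are not independent observations.

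Beta genes as a sum stood at 47.0, 52.8, 59.7 and 49.3 FPKM in the cKO (52.2 ± 5.52) against 41.2 to 48.4 in wild type. The lowest cKO library lay within the wild type range. Only Pcdhb13 had a negative fold change (-0.05). The 2 beta genes with the smallest p were Pcdhb11 and Pcdhb9. Pcdhb11 was at 0.957, 1.31, 1.56 and 1.73 FPKM in wild type and at 2.19, 1.81, 3.04 and 1.70 in cKO, and the groups overlapped (log2 fold change 0.41, SE 0.15, limma adjusted p = 0.628). Pcdhb9 was at 4.74, 4.24, 4.92 and 4.85 in cKO, above all wild type libraries (3.66 to 3.85), a log2 fold change of 0.24 (SE 0.088, limma adjusted p = 0.628). Pcdhb10 was the other member without overlap, at 0.916, 0.948, 0.943 and 1.08 in wild type and 1.14, 1.20, 1.29 and 1.25 in cKO (0.17, SE 0.093, limma adjusted p = 0.641). Its wild type mean was 0.972 FPKM, so it passed the filter of a mean of 1 FPKM only through its cKO values. Pcdhb9 and Pcdhb10 are 4% of the 50 members tested, beside 2.65% of all genes whose cKO libraries all lay above wild type, and 0 members lay below beside 1.76%. Without cKO 1 the log2 fold changes were 0.40 for Pcdhb11, 0.24 for Pcdhb9 and 0.19 for Pcdhb10, and Pcdhb13 was at -0.06. The libraries were not even within the groups. Wild type 1 was the lowest wild type library for 12 of 18 beta genes, and cKO 3 the highest cKO library for 13 of 18.

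The more abundant beta genes overlapped between groups. In the cKO, Pcdhb20 was at 5.66, 6.04, 6.23 and 5.44 FPKM and Pcdhb7 at 4.67, 5.97, 5.50 and 4.66. Their log2 fold changes were 0.15 and 0.23 (limma adjusted p = 0.681 and 0.641), and 0.16 and 0.27 without cKO 1.

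The alpha sum was 62.4 FPKM in cKO 1 and 80.6, 80.6 and 82.2 in the other cKO libraries, which all lay above the wild type range of 68.4 to 76.9. Library cKO 1 was the lowest cKO library for 10 of 11 alpha genes. Pcdhac2 was at 12.9, 17.0, 17.9 and 19.3 FPKM in cKO. With cKO 1 its log2 fold change was -0.02 and without it 0.10. Pcdha9 was at 5.04, 7.94, 8.47 and 7.86, Pcdha11 at 6.99, 7.49, 8.81 and 8.35, and Pcdhac1 at 0.642, 1.30, 1.15 and 1.15, all overlapping wild type. The smallest p-values among alpha genes belonged to Pcdha5 (7.37, 7.67, 8.32 and 7.18 FPKM in cKO against 5.79 to 7.81 in wild type) and Pcdha4 (6.08, 7.21, 7.18 and 7.56 against 5.90 to 6.42). Their log2 fold changes were 0.17 and 0.14, with limma adjusted p = 0.641 and 0.650. Without cKO 1 these were 0.19 for Pcdha5 and 0.20 for Pcdha4, and those of Pcdha9, Pcdha11 and Pcdhac1 were 0.10, 0.01 and -0.01.

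The gamma sum was 195 FPKM in cKO 1 and 231, 231 and 248 in the other cKO libraries, around the wild type range of 225 to 239. In cKO 1 the interneuron, striatal and non-clustered protocadherin levels also departed from the rest. The non-clustered protocadherins summed to 122 FPKM there against 165 to 168 in the other cKO libraries, and the part of any of these in the low alpha and gamma sums was not tested. Library cKO 1 was lowest for 19 of 21 gamma genes. Pcdhgc3 was at 37.6, 50.6, 48.3 and 55.0 FPKM in cKO (log2 fold change -0.17, SE 0.11, limma adjusted p = 0.651), Pcdhga11 at 14.8, 24.6, 22.7 and 22.4 (0.07), and Pcdhgc5 at 2.11, 3.13, 1.95 and 2.47 (0.05). All overlapped wild type. Without cKO 1 the log2 fold change was -0.06 for Pcdhgc3, 0.23 for Pcdhga11 and 0.09 for Pcdhgc5, and Pcdhga11 (limma adjusted p = 0.573) then lay above wild type in all 3 remaining cKO libraries.

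Pcdhgc4 did the opposite in that library. It was at 60.4 FPKM in cKO 1 and at 37.4, 42.7 and 44.5 in the other cKO libraries, so C-type genes made up 51.4% of the gamma level in cKO 1 and 39.6% to 41.1% in the others. The high value lay in a short annotated transcript, Pcdhgc4-203 (2272 nt, a shortened first exon joined to the constant exons). Pcdhgc4-203 was at 42.0 FPKM in cKO 1, at 14.7, 19.6 and 17.5 in the other cKO libraries and at 15.8 to 25.9 in wild type. The full-length Pcdhgc4-201 was at 17.4 in cKO 1, below its 19.0 to 25.9 elsewhere in frontal cortex. Pcdhgc4-203 was listed at 0 in every pull-down and input library, and most of its length is constant exon, so its level rests on how the estimate divided shared reads. Without Pcdhgc4-203 the gamma cluster was at 211 FPKM in wild type and 203 in cKO on average, and at 219 in the cKO libraries other than cKO 1. The log2 fold change of Pcdhgc4 was -0.05 without cKO 1.

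The gamma genes with the smallest p were Pcdhga9 and Pcdhga3. Pcdhga9 was at 2.37, 3.70, 3.52 and 3.81 FPKM in cKO and 2.65 to 2.91 in wild type (log2 fold change 0.20, limma adjusted p = 0.646). Pcdhga3 was at 7.59, 11.98, 10.2 and 12.4 in cKO and 11.6 to 12.9 in wild type (-0.20, limma adjusted p = 0.648). In each case cKO 1 was the lowest library and the groups overlapped. Without cKO 1 the log2 fold change was 0.31 for Pcdhga9 (limma adjusted p = 0.573), with no overlap, and -0.06 for Pcdhga3.

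The second question was which of these RNAs the AUTS2 antibody recovered beyond IgG and beyond input. Both comparisons use the same 2 RIP libraries, so their values are not independent, and they are given side by side. Each table was scaled by itself, and the RIP libraries differ between them by a factor of 1.018 for A and 1.015 for B. With 2 libraries per group the fold changes are uncertain. The median standard error over gamma genes was 0.19 on the log2 scale against IgG and 0.185 against input.

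As sums of FPKM, gamma RNA stood above both controls in both RIP libraries, and beta RNA below. The gamma cluster was at 329 and 303 FPKM in RIP and 270 and 286 in IgG, and, in the other table, at 335 and 308 in RIP and 277 and 279 in input. The beta cluster was at 69.0 and 60.7 in RIP against 90.2 and 87.1 in IgG, and at 70.2 and 61.6 against 78.8 and 71.8 in input. The alpha cluster was at 106 and 92.0 in RIP against 90.1 and 91.2 in IgG, and at 108 and 93.4 against 97.3 and 89.0 in input, where the groups overlapped. C-type genes made up 32.9% of the gamma level in RIP, 35.1% in IgG and 36.9% in input, so the higher gamma sum in RIP lay mostly in the alternate genes. All genes together summed to 306900 and 305500 FPKM in RIP and to 283800 and 280500 in IgG. As a percent of that total the gamma cluster was at 0.107% and 0.0993% in RIP and 0.0952% and 0.102% in IgG, which overlapped, and at 0.0903% and 0.0882% in input, which did not. The beta percent stayed below both controls, at 0.0225% and 0.0199% in RIP, 0.0318% and 0.0310% in IgG and 0.0257% and 0.0227% in input.

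**Figure D2:**
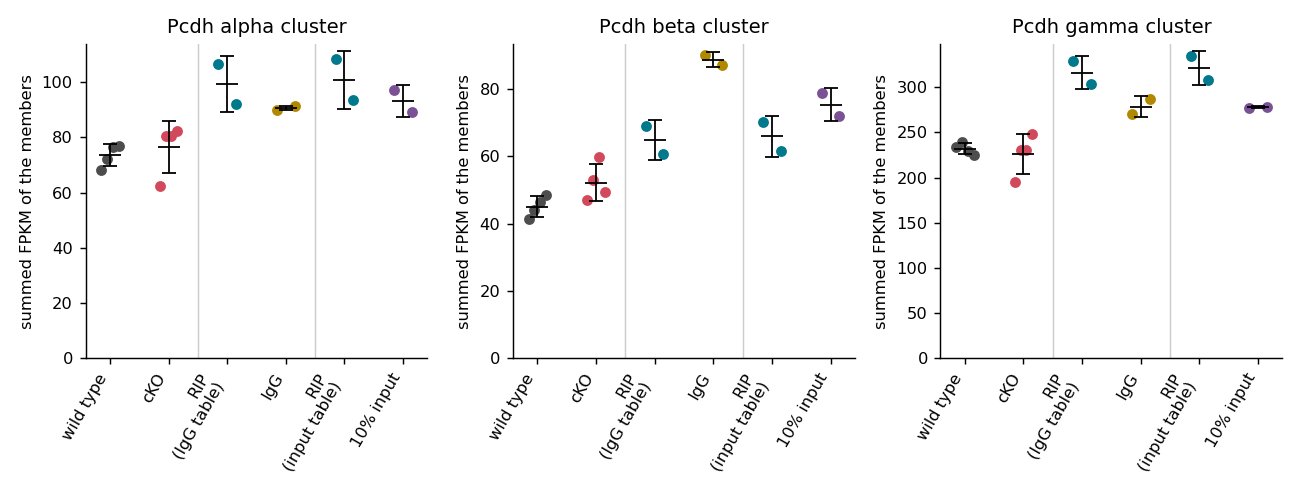
Summed FPKM of the members in each library, 1 panel per cluster (alpha, beta and gamma). Each panel holds frontal cortex wild type and cKO, then RIP and IgG, then RIP and input. Among the frontal cortex points cKO 1 is low for alpha (62.4) and gamma (195). The RIP points lie above their controls for gamma and below them for beta, before scaling to the library total.

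Against IgG, no single member was called. Of 54 members tested (11 alpha, 21 beta and 22 gamma) 0 were called higher and 0 lower with limma, where 13.7% of the 14570 genes tested were called higher and 9.69% lower. Pcdha1, Pcdha8 and Pcdhb1 were under the filter, at most 1.36 FPKM in any library. Pcdhb6 passed it only through IgG (0.685 FPKM in RIP and 1.39 in IgG on average). Without regard to p, both RIP libraries lay above both IgG libraries for 16 members (2 alpha, 1 beta, 13 gamma) and below for 17 (2 alpha, 13 beta, 2 gamma). Over all genes these shares were 34.3% and 30.2%, and over the members 29.6% and 31.5%, so the members as a whole were near the background, while the clusters lay to opposite sides. The median log2 fold change was -0.01 for alpha genes (5 of 11 positive), -0.31 for beta genes (1 of 21) and 0.21 for gamma genes (18 of 22), beside 0.02 over all genes. With the trends of fold change on transcript length and GC content removed, the medians were -0.13, -0.26 and -0.06, so the gamma median turned negative and the beta median kept its sign. Gamma transcripts are richer in GC than beta transcripts, with a median of 52.8% against 45.6% in this comparison, and the part of GC content in the difference between clusters was not tested beyond that correction.

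The beta genes with the smallest p against IgG were Pcdhb22 and Pcdhb17. Pcdhb22 (chromosome 18, 37517871 to 37524479) was at 6.66 and 7.93 FPKM in IgG and 4.09 and 4.36 in RIP (log2 fold change -0.66, SE 0.21, limma adjusted p = 0.0715). Pcdhb17 was at 11.1 and 9.74 in IgG and 7.21 and 5.58 in RIP (-0.64, SE 0.21, limma adjusted p = 0.0739). Both groups lay apart, but neither gene passed. Pcdhb20 (12.2 and 9.98 in IgG, 8.90 and 5.86 in RIP) and Pcdhb9 (7.005 and 4.27 against 3.85 and 3.45) had the same order, while Pcdhb7 overlapped (5.19 and 4.88 against 6.51 and 3.501). The beta gene with a positive fold change was Pcdhb15, at 1.62 and 2.25 in IgG and 2.83 and 3.33 in RIP (0.48, limma adjusted p = 0.258). Under quantile normalization 7 of the 21 beta genes were positive and the median was -0.13.

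Of the alpha genes, Pcdhac2 was at 20.1 and 22.6 FPKM in IgG and 34.3 and 26.6 in RIP (log2 fold change 0.49, SE 0.17, limma adjusted p = 0.0824). Pcdha9 was at 6.83 and 5.07 in IgG and 9.32 and 8.85 in RIP (0.55, SE 0.22, limma adjusted p = 0.117). For these genes the RIP libraries lay above IgG, and for Pcdhac1 below, at 3.09 and 2.75 in IgG and 2.47 and 1.41 in RIP. Pcdha11 overlapped (8.61 and 11.5 against 8.49 and 8.81). The gamma genes with the smallest p were Pcdhgb6 and Pcdhga2. Pcdhgb6 was at 16.8 and 15.2 in IgG and 21.2 and 22.0 in RIP (0.41, SE 0.14, limma adjusted p = 0.0841). Pcdhga2 was at 6.996 and 6.92 in IgG and 11.6 and 9.51 in RIP (0.53, SE 0.19, limma adjusted p = 0.0966). The most abundant gamma genes and Pcdhgc5 did not pass either. Pcdhgc3 was at 67.7 and 73.2 in IgG and 76.2 and 68.0 in RIP, Pcdhgc4 at 21.8 and 23.4 against 26.1 and 25.0, Pcdhga11 at 24.9 and 22.7 against 29.5 and 25.7, and Pcdhgc5, a low gamma gene, at 3.21 and 6.38 against 6.99 and 5.75. Pcdhgc3 and Pcdhgc5 overlapped between the groups.

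Against input, 1 of 55 members tested (12 alpha, 21 beta, 22 gamma) was called higher and 0 lower, where 19.3% of the 14458 genes tested were called higher and 16.6% lower. Pcdha1 and Pcdhb1 were under the filter. Pcdha8 (0.905 FPKM in RIP and 1.325 in input on average) and Pcdhb6 (0.696 and 1.38) passed it only through input. Pcdhgb8 (1.62 and 0.974) passed it only through RIP. The called gene was Pcdhgb2 (chromosome 18, 37689828 to 37841873), a gamma gene of the B subfamily. It was at 5.54 and 4.96 FPKM in input and 8.60 and 8.71 in RIP, with no overlap (log2 fold change 0.63, SE 0.19, limma adjusted p = 0.0453). Over the alternatives tried its adjusted p ranged from 0.0349 to 0.225. It was lost with the matched pair as a replicate block (limma adjusted p = 0.0674), without input A (0.0628), input B (0.0878), RIP A (0.225) or RIP B (0.225), with no filter (0.083) and with length and GC trends removed (0.113). With coding transcripts only it fell under the filter.

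Pcdhgc5 lay at the threshold. It was at 3.63 and 1.42 FPKM in input and 7.12 and 5.84 in RIP (log2 fold change 1.15, SE 0.36, limma adjusted p = 0.0501). With the replicate block 2 members were called, Pcdhgc5 (limma adjusted p = 0.024) and Pcdhga2 (0.0476). Without input A, which leaves input B alone, the log2 fold change of Pcdhgc5 was 1.62. In input B the joined Pcdhgc5 transcripts were listed at 0 and all 1.42 FPKM was not joined, while input A had 3.06 joined. A 0 can be a failed estimate, and the Pcdhgc5 difference rests in part on it. In all, 8 of the 55 members tested had an unadjusted limma p under 0.05, beside 6813 of all 14458 genes tested. This is a smaller share than over all genes, and all 8 were gamma genes higher in RIP. Beside Pcdhgb2 and Pcdhgc5 these were Pcdhgb4, Pcdhga2, Pcdhga10, Pcdhga5, Pcdhga12 and Pcdhgb7. Pcdhgb4 was at 2.58 and 1.92 FPKM in input and 4.46 and 4.36 in RIP (0.74, limma adjusted p = 0.0648), and Pcdhga2 at 7.43 and 5.40 in input and 11.8 and 9.65 in RIP (0.67, limma adjusted p = 0.0625). In each of the 8 both RIP libraries lay above both input libraries.

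Counting only order, both RIP libraries lay above both input libraries for 18 members (2 alpha, 1 beta, 15 gamma) and below for 8 (1 alpha, 7 beta, 0 gamma). This was 32.7% and 14.5% of the members, beside 35.9% and 35.2% of all genes. The median log2 fold change was 0.07 for alpha genes (8 of 12 positive), -0.12 for beta genes (4 of 21) and 0.25 for gamma genes (20 of 22), beside -0.02 over all genes. After removal of length and GC trends the medians were -0.13, -0.06 and -0.22. The gamma median thus changed sign, 8 of 22 gamma genes were positive, and the only call was Pcdhgc3, lower in RIP (-0.39, limma adjusted p = 0.049). Under quantile normalization the beta median was 0.03, with 12 of 21 positive. The beta genes with the smallest p were Pcdhb9 (6.66 and 4.71 FPKM in input, 3.92 and 3.503 in RIP, limma adjusted p = 0.169) and Pcdhb19 (6.89 and 6.65 against 5.58 and 4.53). The alpha genes with the smallest p were Pcdhac2 (26.8 and 23.8 against 35.0 and 27.0, limma adjusted p = 0.242) and Pcdha7 (5.88 and 5.03 against 7.05 and 6.39). None of these 4 passed. The remaining abundant or C-type members did not pass. Pcdhgc4 was at 22.3 and 24.5 in input and 26.5 and 25.4 in RIP, Pcdhga11 at 27.1 and 26.4 against 30.0 and 26.1, Pcdhgc3 at 76.2 and 76.8 against 77.6 and 69.1, and Pcdhac1 at 1.65 and 2.82 against 2.51 and 1.43. Pcdha11 (7.13 and 9.42 against 8.64 and 8.94), Pcdha9 (9.57 and 8.15 against 9.48 and 8.99), Pcdhb20 (7.78 and 7.48 against 9.06 and 5.94) and Pcdhb7 (5.97 and 3.29 against 6.63 and 3.55) overlapped.

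**Figure D3:**
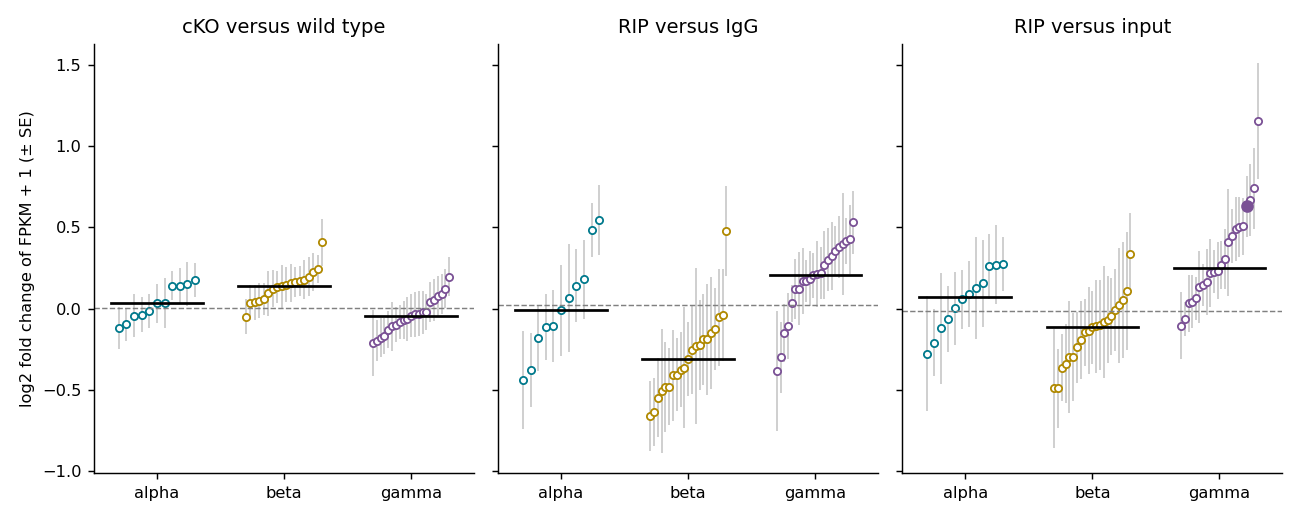
Log2 fold change of each tested member on the log2(FPKM + 1) scale, 1 panel per comparison (cKO over wild type, RIP over IgG, RIP over input), grouped by cluster, with the cluster median as a bar. Beta points lie mostly above 0 in the cKO panel and below 0 in the RIP panels, and gamma points mostly above 0 in the RIP panels, before any correction for length or GC content.

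Sums per gene hide which transcripts carry the RNA. A transcript was called joined when it contains the first constant exon of its cluster (59 nt) with its exact borders. This was taken as splicing of the variable exon to the shared end, and all other transcripts were called not joined. Annotated not-joined transcripts are mostly labelled as retained introns. Other constant sequence was not looked for, so a not-joined transcript can still hold some. The first exon of an annotated Pcdhgc5 transcript overlaps exons of the other gamma genes. The annotation holds 22 joined and 2 not-joined alpha transcripts, and 27 joined and 12 not-joined gamma transcripts. In polyA RNA of frontal cortex almost all gamma RNA was joined. Not-joined transcripts held 2.05% ± 0.423 of the gamma level in wild type and 2.22% ± 0.298 in cKO (SD, n = 4 each), and 2.13% in the cKO without cKO 1.

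In the total RNA of the pull-down set the share was larger, and it was highest in RIP. Not-joined transcripts held 19.2% and 21.5% of the gamma level in input, 22.1% and 27.0% in IgG, and 31.1% and 31.4% in RIP. The 3 groups did not overlap in this share, with 2 libraries each and no test of a sum. The joined gamma level differed less, at 227 and 208 FPKM in RIP, 211 and 209 in IgG and 224 and 219 in input. The not-joined level was at 102 and 95.3 in RIP against 59.6 and 77.4 in IgG and 53.3 and 59.9 in input. In the alpha cluster, which has 2 such transcripts, the share was 6.21% and 7.61% in RIP, 2.58% and 4.43% in IgG and 0.937% and 0% in input. The alpha order did not hold when transcripts listed at 0 in any library of a table were left out. The alpha share was then 2.33% and 0.578% in RIP, below 2.79% and 4.75% in IgG, and 0% in both RIP and input in the input table. The gamma order held, at 29.9% and 29.5% in RIP against 22.6% and 25.9% in IgG, and 27.8% and 27.3% against 18.6% and 19.7% in input. The polyA and total RNA sets differ in selection, kit, dissection and animals, which cannot be told apart.

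**Figure D4:**
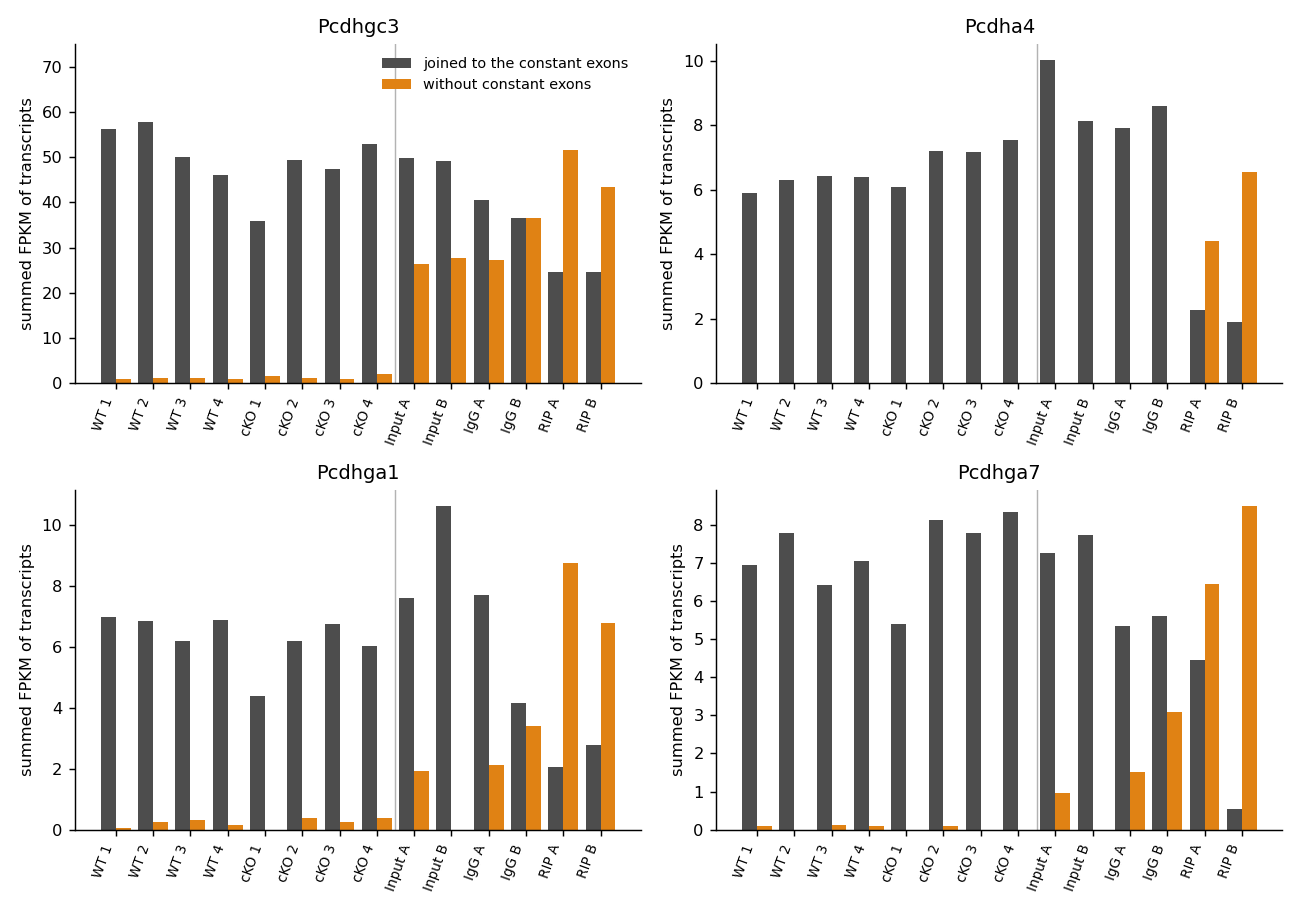
Summed FPKM of the joined and the not-joined transcripts of Pcdhgc3, Pcdha4, Pcdhga1 and Pcdhga7, 1 panel per gene and 1 pair of bars per library. Libraries are frontal cortex wild type and cKO, input, IgG, and RIP as scaled with IgG. Not-joined Pcdhgc3 transcripts were at 51.5 and 43.5 FPKM in RIP, 27.2 and 36.6 in IgG and 26.4 and 27.7 in input. Their order between groups was not shared by every member.

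Pcdhgc3, the most abundant member, had 1 of the transcripts called against input, although its sum overlapped between groups. Its joined coding transcript Pcdhgc3-201 (4687 nt) was at 49.8 and 49.1 FPKM in input and at 25.2 and 24.1 in RIP, a log2 fold change of -0.98 (SE 0.099, limma adjusted p = 0.0317 over 31189 transcripts, a test added after seeing the data). Its not-joined transcript Pcdhgc3-203 (3380 nt, a retained intron) was at 26.4 and 27.7 in input and 52.4 and 44.2 in RIP (0.81, limma adjusted p = 0.0514). Against IgG the order was the same and neither passed. Pcdhgc3-201 was at 38.4 and 34.7 in IgG and 24.7 and 23.8 in RIP (limma adjusted p = 0.1), and Pcdhgc3-203 at 27.2 and 36.6 against 51.5 and 43.5 (0.204). In wild type polyA RNA Pcdhgc3-201 was at 46.1 to 57.5 FPKM and Pcdhgc3-203 at 1.05 to 1.16. With coding transcripts only, Pcdhgc3 as a gene was called lower in RIP, by -0.98 against input (limma adjusted p = 0.00129) and -0.57 against IgG (0.0148), and so was Pcdha4 (-1.68, 0.00232 and -1.58, 0.00344).

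Pcdha4 had the other transcript called against input. Its not-joined Pcdha4-203 (2894 nt, a retained intron) was listed at 0 in all frontal cortex, IgG and input libraries and at 4.50 and 6.67 FPKM in RIP (limma adjusted p = 0.042 against input and 0.0638 against IgG). No fold is given against values listed at 0. The joined Pcdha4-202 was at 7.51 and 6.68 in input and 2.32 and 1.93 in RIP (-1.37, limma adjusted p = 0.0644). Across all transcripts tested, 4.48% were called higher and 2.36% lower against input, and 0% and 0% of 31647 against IgG, where 7158 had an unadjusted p under 0.05. Of the members' 68 transcripts tested against input 1 was called higher and 1 lower, and of 70 tested against IgG 0. Both input calls were lost with the replicate block (limma adjusted p = 0.0683 for Pcdhgc3-201 and 0.089 for Pcdha4-203) and when any library was left out. In frontal cortex 57 of the members' transcripts were tested and 0 called.

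In 3 other gamma genes, chosen after their values were seen, the not-joined transcript was higher in both RIP libraries than in input, and none of these differences passed the test. Pcdhga1-202, not joined, was at 1.93 and 0 FPKM in input, 2.11 and 3.40 in IgG and 8.89 and 6.90 in RIP, while the joined Pcdhga1-201 was at 7.61 and 10.6 in input and 2.10 and 2.78 in RIP (limma adjusted p = 0.0632). Pcdhga7-202, not joined, was at 0.963 and 0 in input, 1.503 and 3.08 in IgG and 6.57 and 8.62 in RIP (limma adjusted p = 0.0617 against input). The joined Pcdhga7-201 was at 7.26 and 7.73 in input and 4.54 and 0.542 in RIP (limma adjusted p = 0.254). Pcdhgb1-202, not joined, was listed at 0 and at 0.0808 in IgG, and was at 1.55 and 3.78 in input and 4.03 and 5.08 in RIP. The joined Pcdhgb1-201 overlapped between input (6.12 and 3.74) and RIP (5.21 and 3.90), so the lower joined level seen for the other two genes was not seen there. The call for Pcdhgb2 above drew on both kinds of transcript. Pcdhgb2-201 (2756 nt, a retained intron) was at 5.54 and 4.96 in input and 7.43 and 8.19 in RIP, while the joined Pcdhgb2-202 was listed at 0 in input and was at 1.17 and 0.521 in RIP. The not-joined share of Pcdhgb2 was thus lower in RIP (86.4% and 94.0%) than in input (100% and 100%). These listed 0 values can be failed estimates. In wild type polyA RNA it was Pcdhgb2-202 that carried the gene, at 4.33 to 4.47 FPKM.

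This order was not shared by every member. Among 14 alpha and gamma genes with both kinds of transcript, the not-joined share was higher in both RIP libraries than in both IgG libraries for 6, lower for 4 and overlapping for 4. Against input it was higher for 4, lower for 2 and overlapping for 8. Pcdhga9 was among those with a lower share, 20.9% and 46.7% in RIP against 57.8% and 68.9% in IgG, and so was Pcdhgc5, 12.2% and 12.5% against 33.6% and 43.0%. The median log2 fold change against input was 0.66 over 11 not-joined alpha and gamma transcripts and 0.16 over 36 joined ones. All 6106 tested transcripts annotated as retained introns had a median of 0.49, and all tested transcripts 0.17. Against IgG the medians were 0.22 over 12 not-joined and 0.16 over 36 joined transcripts, beside 0.22 over all retained introns and 0.13 over all transcripts. Transcripts annotated as retained introns thus had positive medians across all genes in both comparisons.

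Genes that act on or around the clusters were followed as lists. The cluster regulators are 20 genes for CTCF, cohesin and its loaders, DNA methylation and silencing. In the cKO 0 of 20 were called. Against IgG 12 were called higher and 0 lower (median log2 fold change 0.66), beside 13.7% and 9.69% of all genes, and against input 14 higher and 2 lower (0.73), beside 19.3% and 16.6%. Dnmt1, the maintenance DNA methyltransferase, was at 88.4 ± 0.336 FPKM in RIP and 36.1 ± 4.43 in IgG (SD, n = 2 each; log2 fold change 1.28, limma adjusted p = 0.00299), and at 89.9 in RIP and 27.6 in input (1.67, limma adjusted p = 0.000765). Hnrnpu, a nuclear scaffold protein, was at 308 in RIP and 178 in IgG (0.79, limma adjusted p = 0.00469). Setdb1, a histone methyltransferase that silences, was at 32.7 in RIP and 13.9 in input (limma adjusted p = 0.00209). With length and GC trends removed, 10 were called higher and 0 lower against IgG and 9 and 1 against input, where 963 and 820 of all 14570 genes and 1675 and 1813 of all 14458 genes were called.

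Protein partners and signalling genes, such as the WAVE complex, kinases and sheddases that meet protocadherin tails, went to both sides. In the cKO 0 of 23 were called. Against IgG 2 of 24 were higher and 6 lower, beside 13.7% and 9.69% of all genes. With length and GC trends removed 1 was higher and 4 lower, beside 963 and 820 of all 14570 genes. Against input 6 of 23 were higher and 8 lower, beside 19.3% and 16.6% of all genes. With the trends removed 3 were higher and 8 lower, beside 1675 and 1813 of all 14458 genes. Abi2, a WAVE complex subunit, was at 39.1 FPKM in RIP and 71.1 in IgG (log2 fold change -0.85, limma adjusted p = 0.00518). Adam10, the protease that sheds cadherins, was at 13.6 against 25.2 (-0.85, limma adjusted p = 0.0112). Rac1, a small GTPase of the actin skeleton, was at 40.8 in RIP and 94.9 in input (-1.20, limma adjusted p = 0.00129).

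The non-clustered protocadherins lie elsewhere in the genome. In the cKO 0 of 12 were called. Pcdh20 had the smallest p, at 3.90 ± 0.668 FPKM in wild type and 2.35 ± 0.268 in cKO (SD, n = 4 each; log2 fold change -0.54, limma unadjusted p = 0.000598, adjusted p = 0.425), and at -0.52 without cKO 1. In RIP 2 of 11 were called higher than IgG and 4 of 12 higher than input, with 0 lower in either, beside 13.7% and 19.3% of all genes called higher. With length and GC trends removed 1 was higher in each comparison, and the median against input went from 0.28 to 0.03. Over all genes 963 of 14570 were then higher against IgG and 1675 of 14458 against input. Pcdh15, a protein of hair cell tip links, was at 36.9 in RIP and 18.7 in IgG (0.95, limma adjusted p = 0.00855) and at 37.5 against 13.9 in input (1.37, limma adjusted p = 0.00199). Pcdh7 passed in both (0.59 and 0.58). Of the genes that flank the clusters on the chromosome, 13 were tested. In the cKO 0 were called, 11 of 13 had a positive fold change and the median was 0.08, or 10 of 13 and 0.05 without cKO 1. Rell2 had the smallest p (0.18, limma adjusted p = 0.628). In RIP 5 were higher than IgG and 0 lower, beside 13.7% and 9.69% of all genes, led by Ik, a splicing factor (1.03, limma adjusted p = 0.00735). Against input 5 were higher and 2 lower, beside 19.3% and 16.6%, led by Ndufa2, a subunit of mitochondrial complex I (-1.23, limma adjusted p = 0.00314). With length and GC trends removed 4 were higher and 0 lower against IgG, beside 963 and 820 of all 14570 genes. The same removal gave 3 higher and 2 lower against input, beside 1675 and 1813 of all 14458 genes.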

How the data were processed

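RNA-seq of newborn mouse cortex was used in 3 tables, each with 4 or 2 libraries per group. The deposited values are FPKM per transcript, estimated by the authors per library, per the file headers, on GENCODE vM14. STAR 2.5, SAMtools, Cuffdiff 2.2.1 and the build GRCm38.p4 (mm10) are named per the submitters' processing notes. Strand settings, filters and scaling are stated in none of these sources. The absence of counts leaves depth unknown.

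Each table held 128508 transcripts. Of these 127975 matched GENCODE vM21 by identifier and were summed per symbol, 533 did not match, and 25 further rows with only 0 were left out. Library cKO 4 was matched by its library number, since its label and column carry different short names. Tests stayed within a table. Genes at a mean of 1 FPKM or more were tested by limma 3.58.1 (R 4.3.3) after log2(FPKM + 1) transformation (trend and robust settings, two-sided, Benjamini-Hochberg over all genes at 0.05), which understates the change of low genes. Python 3.11.15, pandas 2.3.3, numpy 2.4.6 and matplotlib 3.10.9 made the tables and figures. The fits were tested on simulated data. RIP, IgG and input of the same letter were split from the same pooled tissue, per the series design, so the letters pair them. Their deviations from the group mean had a correlation r of 0.00879 (RIP with IgG) and 0.012 (RIP with input).

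Alternatives were other pseudocounts (0.1 or 5), a filter at 5 FPKM or none, quantile normalization, median-ratio rescaling, no trend or robust settings, a replicate block, leaving out each library, Xist as a covariate in frontal cortex, removal of length and GC trends, and coding transcripts only. Tests of single transcripts and sums without Pcdhgc4-203 were added after seeing the data. Values of every library are given for cluster sums, the 3 highest members of each cluster in wild type, C-type members, called members and, where none is called, the 2 members per cluster with the smallest p. Up to 3 genes per list are named. Other members were named after their values were seen. The members and lists, including the cell type markers, were chosen with earlier results of these data known.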

Additional observations from a re-analysis of the deposited data

Results flagged for a closer look

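In groups of 4 libraries a value was singled out when its gap to the nearest other library was large against the range of the group (Dixon's test). Of 54 such groups 3 held such a value, and chance gives about 1 in 20. The alpha cluster summed to 62.4 FPKM in cKO 1, against 80.6 to 82.2 in the other cKO libraries. C-type genes made up 51.4% of the gamma level in cKO 1, against 39.6% to 41.1% in the others, and Pcdhgc4-203 was high in that library. Pcdhb9 was at 3.66 FPKM in wild type 2, against 3.83 to 3.85 in the other wild type libraries, a small gap within a tight group.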

How the results depend on the processing

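In frontal cortex the count of 0 called members held under all 18 alternatives, leaving out each library included. Same-numbered wild type and cKO libraries deviated together only weakly (r = 0.176, 0.0173, -0.0394 and 0.0659). This cannot settle whether the numbers pair them, since letters that do pair the pull-down libraries also gave a weak correlation. With the replicate number as a block 0 members were called. Of the recomputed fold changes of named members 11 changed sign and 271 did not. With Xist as a covariate Pcdha9 was at 0.00287 and Pcdhac2 at 0.0722. Leaving out each library, the fold changes ranged from -0.12 to 0.0128 for Pcdha11, -0.11 to 0.10 for Pcdha9, -0.0845 to 0.10 for Pcdhac2, -0.00331 to 0.23 for Pcdhga11, -0.0458 to 0.18 for Pcdhgc4 and -0.0424 to 0.12 for Pcdhgc5. Without Pcdhgc4-203 the gamma level was 210.7 FPKM in wild type and 202.5 in cKO.

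Against IgG, coding transcripts only gave 2 members called lower and no other alternative gave a call. That setting put Pcdha11 at 0.43 and Pcdhgc3 at -0.57. Quantile normalization put Pcdhb7 at 0.0499 and Pcdhgc3 at -0.32, and median-ratio rescaling put Pcdhgc3 at -0.0173. Removing length and GC trends put Pcdhga11 at -0.0938, Pcdhgc3 at -0.19 and Pcdhgc4 at -0.22. Leaving out each library gave -0.37 to 0.0058 for Pcdha11, -0.42 to 0.32 for Pcdhb7, -0.0489 to 0.11 for Pcdhgc3 and -0.00605 to 0.80 for Pcdhgc5.

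Against input, members called higher numbered 0 with no filter and with length and GC trends removed, 2 with a mean of at least 5 FPKM, with no trend or robust settings, with a pseudocount of 5 and with the replicate block, 3 with quantile normalization, and 0 to 1 leaving out each library. Members called lower numbered 1 with length and GC trends removed, 2 with coding transcripts only and 1 with quantile normalization. The block changed no call beyond those given for this comparison, with 0 transcripts called higher and 0 lower, as when leaving out any library (0 to 0). Length and GC removal put Pcdha11 at -0.0874, Pcdha9 at -0.13, Pcdhac2 at -0.13, Pcdhb20 at 0.11, Pcdhga11 at -0.40 and Pcdhgc4 at -0.47. Quantile normalization put Pcdhac1 at 0.0721, Pcdhb20 at 0.0255 and Pcdhga11 at -0.10, and coding transcripts only put Pcdha11 at -0.19 and Pcdhgc4 at -0.029. Leaving out each library gave -0.0898 to 0.27 for Pcdha11, -0.0468 to 0.16 for Pcdha9, -0.39 to 0.14 for Pcdhac1, -0.31 to 0.22 for Pcdhb20, -0.26 to 0.48 for Pcdhb7, -0.0357 to 0.16 for Pcdhga11, -0.15 to 0.0203 for Pcdhgc3 and -0.37 to 0.22 for the transcript Pcdhgb1-201. The causes were not tested.

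With coding transcripts only the summed FPKM was 84.2 for alpha in IgG, and for gamma 212.9 in IgG, 234.0 in RIP in the same table, 224.3 in input and 237.9 in RIP in the input table. With only transcripts above 0 in every library, the not-joined share was 0% for alpha and 1.42% for gamma in wild type, 1.72% for gamma in cKO, 1.46% for alpha and 29.7% for gamma in RIP in the IgG table, and 0% and 27.6% in the input table. Depth is unknown, so what it limits cannot be stated.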
